A study of Homo sapiens with 9 samples.

Results

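Expression of 9 target genes of the tumour suppressor p53 was examined in TC-32, a human Ewing sarcoma cell line, across cells with introduced ETS1 and control cells. The 9 genes were taken from the tables by symbol: CDKN1A, MDM2, TP53I3, BBC3, BAX, GDF15, SESN1, FAS and ZMAT3. They are 9 of the 58381 genes in the count table, and all 9 were among the 17235 genes with enough counts to be tested. The negative regulator MDM4 and the tumour suppressor locus CDKN2A are described beside them.

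p53 is a transcription factor that binds paired short sites in DNA and switches on genes that stop the cell cycle, start apoptosis or adjust metabolism after stress. MDM2, itself a target, marks p53 for degradation, so p53 activity is set largely at the protein level and feeds back on itself. Proteins were not measured in these data. Ewing sarcoma is driven by the fusion EWSR1::FLI1, whose DNA-binding portion, like ETS1, belongs to the ETS family and recognises a GGAA core.

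The study asked how ETS1 regulates expression while EWSR1::FLI1 is present. There were 3 groups of 3 libraries, all of TC-32. RFP cells carried the pLOC lentiviral vector with a red fluorescent protein. ETS1-Low and ETS1-High cells both carried pLOC with a synthetic human ETS1 cDNA and differed in the level of ETS1. ETS1-High was set by the study at the level found once EWSR1::FLI1 is depleted, and the fusion was left in place in all 3 groups. Transduced cells were selected with puromycin and sorted as single cells. The labels do not give the number of clones behind a group, nor whether RFP was a clone, so effects of ETS1 and differences between clones cannot be told apart. Nothing in the labels says that the 3 libraries of a group came from separate cultures, so p-values measure the spread between libraries, which may be technical.

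Library totals ran from 39484704 to 46654734 expected counts. ETS1, the introduced gene, gave 1.81 to 2.15 CPM (counts scaled to a common library total with TMM factors) in RFP, 10.3 to 10.9 in ETS1-Low and 18.2 to 19.7 in ETS1-High, so the libraries followed their labels. All 9 Ewing sarcoma markers were detected, with summed levels of 1220 to 1260 CPM in RFP, 1510 to 1530 in ETS1-Low and 1570 to 1610 in ETS1-High. Markers of haematopoietic, epithelial, endothelial and melanocyte cells summed to between 0.0853 and 5.56 CPM per list in any library. CD3E, TYR and MLANA had 0 counts in every library, and PTPRC, EPCAM and CDH1 had at most 9. The most abundant of these markers were PECAM1, with 78 to 244 counts, and KRT5, with 0 to 130. In bulk libraries, fewer cells expressing a gene and less RNA per cell cannot be told apart.

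The p53 targets did not move together. In ETS1-High versus RFP, 8 of the 9 passed edgeR's quasi-likelihood test at a Benjamini-Hochberg adjusted p under 0.05, beside 74.2% of all tested genes. CDKN1A, ZMAT3, BAX and MDM2 were higher, and BBC3, FAS, SESN1 and GDF15 were lower. In ETS1-Low versus RFP, 7 of 9 passed, beside 74.1% of all genes: CDKN1A, ZMAT3, BAX and MDM2 were higher, and BBC3, FAS and GDF15 were lower. In ETS1-High versus ETS1-Low, 4 of 9 passed, beside 59.2% of all genes: CDKN1A, ZMAT3 and TP53I3 were higher and MDM2 was lower. Both comparisons with RFP use the same 3 RFP libraries, so they are not independent of each other. GDF15 is counted in both, but it passed the low-count filter through the RFP libraries, where it is high. Without it, BBC3 and FAS were still lower in both. With this share of all genes called, the members' counts stand near the background, and the sizes of the single genes carry the description.

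Over the 9 genes the log2 fold change had a median of 0.25 for ETS1-High versus RFP, -0.18 for ETS1-Low versus RFP and 0.07 for ETS1-High versus ETS1-Low. The medians over all tested genes were -0.01, 0.01 and 0.00, and the median sizes regardless of sign were 0.40, 0.41 and 0.25. Changes of at least 2-fold were called for 3 members in ETS1-High versus RFP, beside 21% of all genes, for 2 in ETS1-Low versus RFP, beside 20.6%, and for 0 between the ETS1 groups, beside 9.74%. The libraries of the groups did not overlap for 8, 7 and 4 members in the 3 comparisons, beside 75.5%, 76% and 63.2% of all genes. GDF15, which passed the filter through RFP, is in the 2-fold and non-overlap counts of both comparisons with RFP. Of all genes called, 49.8% were higher in ETS1-High versus RFP and 51.2% in ETS1-Low versus RFP. On the deposited FPKM values with no filter, limma gave 38.1% and 36.5%, while the members split 4 higher to 3 lower and 3 higher to 3 lower.

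**Figure D1:**
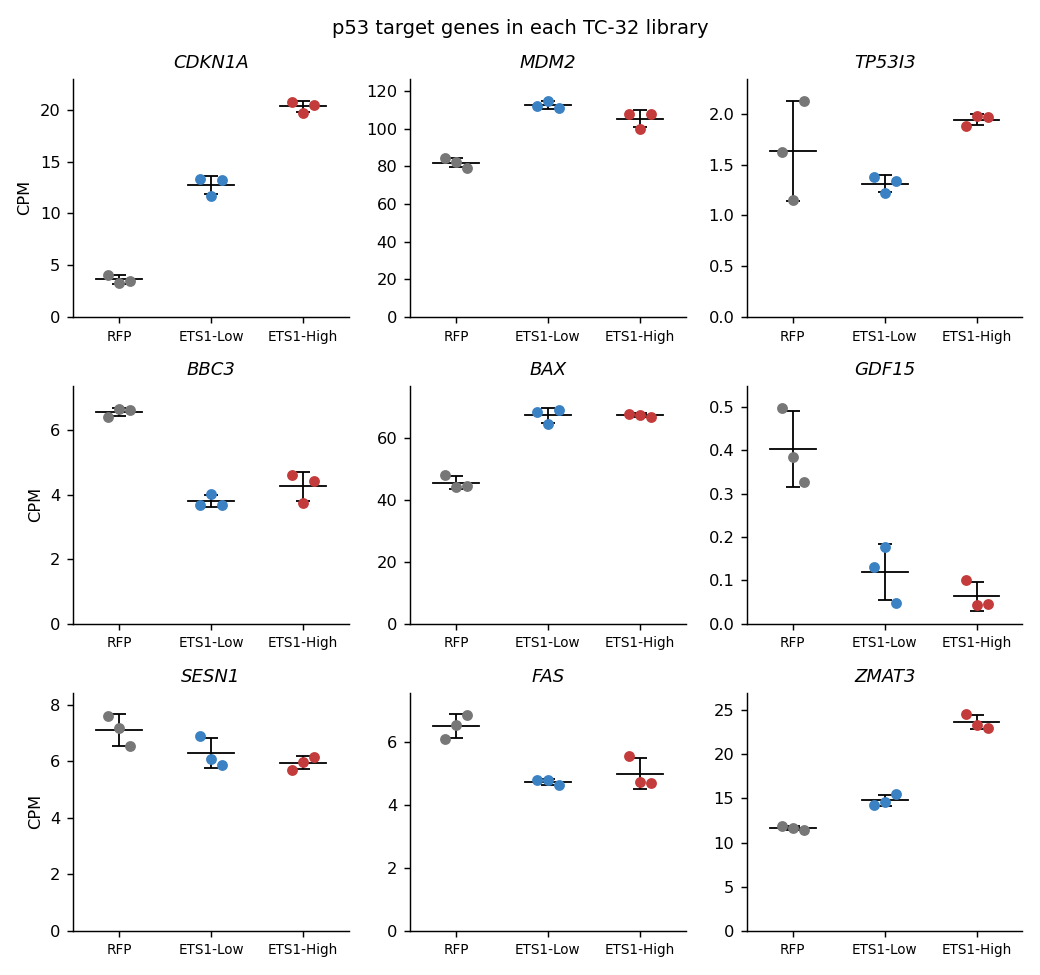
Level of each of the 9 p53 target genes in CPM (vertical axes, from 0) in the 3 RFP, 3 ETS1-Low and 3 ETS1-High libraries (points), with group means and SD (lines and bars). CDKN1A and ZMAT3 step up from RFP to ETS1-Low to ETS1-High, MDM2 and BAX are higher in both ETS1 groups, and BBC3, FAS and GDF15 are lower in both.

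CDKN1A encodes p21, which binds cyclin-dependent kinases and halts the cell cycle, and it is the best-known p53 target. It lies on chromosome 6 (GENCODE v44, GRCh38, chr6:36676460-36687337, + strand). It gave 4.07, 3.31 and 3.48 CPM in the RFP libraries, 13.3, 11.7 and 13.2 in ETS1-Low, and 20.8, 19.7 and 20.5 in ETS1-High. The 3 groups did not overlap, and the order RFP, ETS1-Low, ETS1-High was that of ETS1 itself. The log2 fold change was 2.49 (SE 0.08, edgeR adjusted p = 1.25e-32) in ETS1-High versus RFP, a 5.62-fold difference. It was 1.81 (SE 0.08, edgeR adjusted p = 8.95e-26), or 3.51-fold, in ETS1-Low versus RFP. ETS1-High exceeded ETS1-Low by 0.68 (SE 0.07, edgeR adjusted p = 1.04e-12), or 1.60-fold. Of all tested genes, 92.8% changed less in size than CDKN1A in ETS1-High versus RFP. The 318 tested genes within 10 Mb on either side of CDKN1A had medians of -0.09, -0.06 and 0.00 in the 3 comparisons, so the gene stood apart from its neighbours.

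The proximal CDKN1A promoter is shown because this member changed by the largest called amount upward. The window runs for 250 bases up to the RefSeq start (GRCh38.p14, chr6:36678464-36678713, + strand). It lies within the span of longer annotated transcripts, with 4 bases in an annotated exon. Capitals mark the single match to CCGGAA, the extended ETS core, which is read here on the opposite strand and starts 186 bases before the RefSeq start.

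CDKN1A promoter: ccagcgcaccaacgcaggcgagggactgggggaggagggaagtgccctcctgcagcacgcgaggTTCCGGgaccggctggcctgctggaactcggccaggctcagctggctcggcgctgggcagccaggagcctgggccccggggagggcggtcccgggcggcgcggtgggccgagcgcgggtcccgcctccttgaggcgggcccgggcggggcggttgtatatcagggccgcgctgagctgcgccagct

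CCGGAA, searched on both strands, occurred in 14.5% of the 34943 RefSeq promoter windows of this length, and the shorter GGAA that it contains in 92.7%. All 9 members had at least 1 entry among the RefSeq windows, 17 in all, and CCGGAA was found in those of 2 members, CDKN1A and TP53I3. The p53 response element was searched as its paired half-sites on both strands, with at most 3 mismatches and an intact core, CNNG, in each half-site. It occurred in 0.913% of all windows, and in 4 of the members' 17 windows: those of MDM2 (2 overlapping windows with 1 shared match), SESN1 and FAS. No match means only that these letters are not in the window. Bases outside the windows were not searched, for CDKN1A or any other member, and binding was not measured.

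ZMAT3 encodes an RNA-binding zinc finger protein that acts downstream of p53 on RNA stability and splicing. It lies at chr3:178960121-179072215 on the - strand (GRCh38). ZMAT3 gave 11.9, 11.7 and 11.4 CPM in RFP, 14.2, 14.6 and 15.5 in ETS1-Low, and 24.5, 23.3 and 23.0 in ETS1-High. The groups again did not overlap, with the larger step between ETS1-Low and ETS1-High. ETS1-High exceeded RFP by 1.01 on the log2 scale (SE 0.06, edgeR adjusted p = 1.25e-21), and ETS1-High exceeded ETS1-Low by 0.68 (SE 0.06, edgeR adjusted p = 6.78e-15). ETS1-Low exceeded RFP by 0.34 (SE 0.06, edgeR adjusted p = 2.56e-06). On the FPKM values that last difference was 0.10 and was not called (limma on log2(FPKM + 1), mean FPKM of 1 or more, adjusted p = 0.201). The 88 neighbouring genes had medians of 0.02, -0.01 and 0.06 in the order of ETS1-High versus RFP, ETS1-Low versus RFP and ETS1-High versus ETS1-Low.

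MDM2 encodes the ubiquitin ligase that limits p53 and closes the feedback loop. It lies at chr12:68808177-68845544 on the + strand (GRCh38). The window of 250 bases before a start inside the gene is shown because it holds the p53-responsive promoter of this textbook feedback gene (GRCh38.p14, chr12:68808767-68809016, + strand). Capitals mark a match to the p53 response element with 2 mismatches, at chr12:68808923-68808942, which spans positions -94 to -75 from the RefSeq start and lies in no annotated exon. The search marked only sites with an intact core in each half-site, so the unmarked letters may hold looser sites. Of the window, 15 bases lie in annotated MDM2 exons.

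MDM2 internal promoter: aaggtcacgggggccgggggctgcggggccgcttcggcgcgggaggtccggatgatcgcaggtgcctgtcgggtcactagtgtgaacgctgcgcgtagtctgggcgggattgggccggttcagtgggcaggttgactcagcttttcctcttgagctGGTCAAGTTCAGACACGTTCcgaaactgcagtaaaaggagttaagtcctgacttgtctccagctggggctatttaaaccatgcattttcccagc

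MDM2 was the second most abundant member per length, and its change was small but tight. It gave 84.3, 82.5 and 79.3 CPM in RFP, 112, 115 and 111 in ETS1-Low, and 108, 100 and 108 in ETS1-High. Every ETS1 library lay above every RFP library. MDM2 was higher by 0.46 (SE 0.03, edgeR adjusted p = 1.64e-17) in ETS1-Low and by 0.36 (SE 0.03, edgeR adjusted p = 7.27e-14) in ETS1-High, each versus RFP. Unlike CDKN1A and ZMAT3, MDM2 did not step up with ETS1: ETS1-High lay 0.10 below ETS1-Low on the log2 scale (log2 fold change -0.10, SE 0.03, edgeR adjusted p = 0.0101). That call was lost without ETS1-Low replicate 2 (adjusted p = 0.0649) or without ETS1-High replicate 2 (0.141). MDM2 counts were not whole numbers in any of the 9 libraries, as RSEM gives where reads are shared between loci, and a processed pseudogene with 188 to 287 counts overlaps the gene on the same strand. The library kit keeps strand, but whether the counting used it is not given in the sources used here.

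MDM4, which binds p53 and blocks its activation domain, gave 104, 112 and 106 CPM in RFP, 91.2, 94.7 and 99.7 in ETS1-Low, and 76.2, 69.0 and 76.7 in ETS1-High. The groups did not overlap, in the reverse order of CDKN1A. MDM4 fell by 0.54 in ETS1-High (SE 0.04, edgeR adjusted p = 3.24e-12) and by 0.17 in ETS1-Low (SE 0.04, edgeR adjusted p = 0.000414), each versus RFP. The neighbouring genes of MDM4 had medians of -0.26 and -0.27 in these comparisons, so the ETS1-Low value is no lower than its neighbourhood; their part in the result was not tested. CDKN2A, whose products include the MDM2 inhibitor ARF, was near the limit of detection, with 23 to 35 counts in RFP, 14 to 16 in ETS1-Low and 23 to 29 in ETS1-High. Its log2 fold change was -0.70 in ETS1-Low versus RFP (edgeR adjusted p = 0.0418) and 0.71 in ETS1-High versus ETS1-Low (0.0481). Its neighbours had medians of -0.39 and 0.49 in these comparisons. The first call was lost without any 1 of 4 libraries and the second without any 1 of 6, and DESeq2 gave neither (adjusted p = 0.0828 and 0.101). CDKN2B-AS1 overlaps CDKN2A on the opposite strand with 55.2 to 176 counts, more than CDKN2A itself, so their reads may not be separable if strand was not used.

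Among 22 regulators of p53, 21 were tested, and 9 were higher and 6 lower in ETS1-High versus RFP, beside 37% and 37.2% of all genes. The list's median log2 fold change was 0.04. HIPK2, a kinase that activates p53, rose from 53.1 ± 1.21 CPM in RFP (SD, n = 3) to 106 ± 1.26 in ETS1-Low and 120 ± 6.90 in ETS1-High. Its log2 fold change was 1.18 in ETS1-High versus RFP (SE 0.04, edgeR adjusted p = 4.06e-33). EP300, a histone acetyltransferase that coactivates p53, was higher by 0.68 in the same comparison (edgeR adjusted p = 4.84e-25), while its neighbours' median was 0.38. ATR, a DNA damage kinase, fell by 0.32 (edgeR adjusted p = 2.14e-11), and TP53BP2, a p53 cofactor, fell by 0.44 (8.48e-18).

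TP73, the p53 relative that can bind many of the same sites, was highest in ETS1-Low. It gave 23.3 ± 1.43 CPM in RFP, 103 ± 2.90 in ETS1-Low and 44.2 ± 0.409 in ETS1-High (SD, n = 3 each). The log2 fold change of TP73 was 2.14 in ETS1-Low versus RFP (SE 0.04, edgeR adjusted p = 9.15e-43), 0.93 in ETS1-High versus RFP (9.97e-26) and -1.21 in ETS1-High versus ETS1-Low (1.34e-32). Reads of TP73 and of its antisense partner TP73-AS1, which had 2557 to 4776 counts, may not be separable if strand was not used. PPP1R13B, another p53 cofactor, had a similar shape, with 3.28 ± 0.302, 7.79 ± 0.364 and 3.48 ± 0.292 CPM, and fell by 1.17 in ETS1-High versus ETS1-Low (edgeR adjusted p = 1.32e-14). In that comparison 6 regulators were higher and 9 lower, beside 29.9% and 29.3% of all genes. In ETS1-Low versus RFP, 10 were higher and 7 lower, beside 37.9% and 36.2%.

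**Figure D2:**
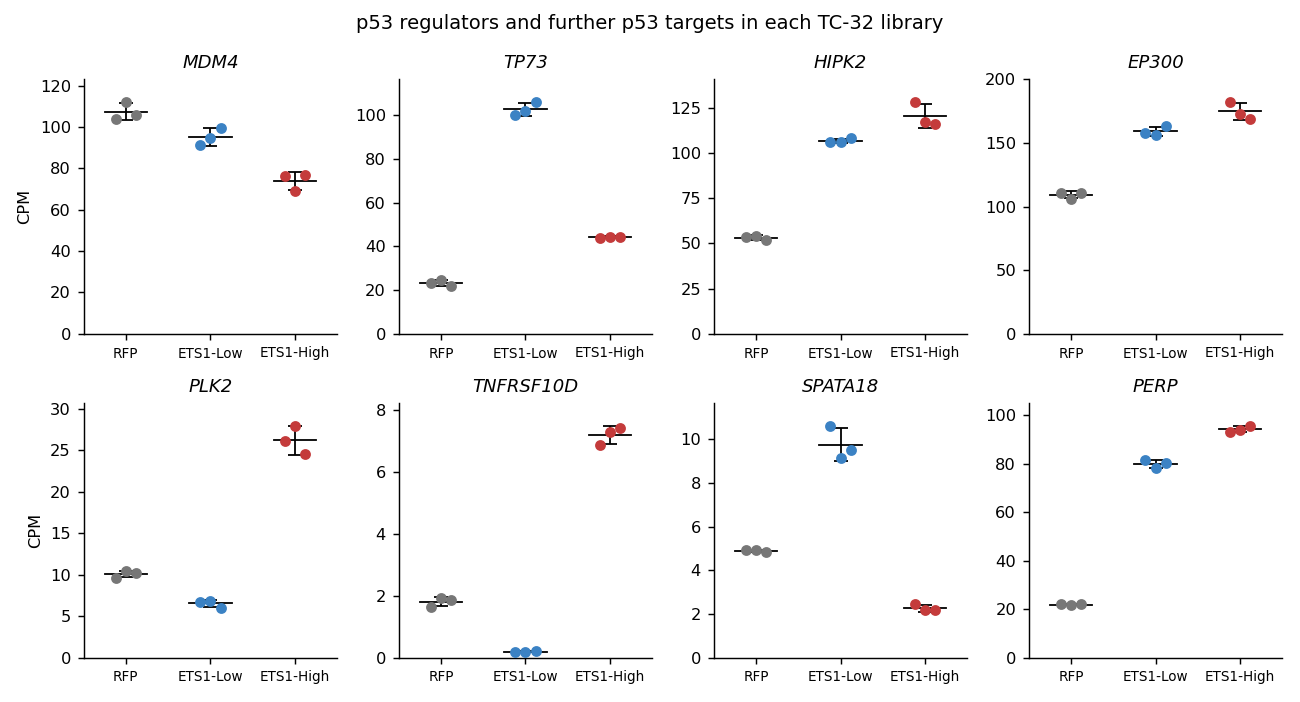
Level in CPM (vertical axes, from 0) of 4 p53 regulators (MDM4, TP73, HIPK2, EP300) and 4 further p53 targets (PLK2, TNFRSF10D, SPATA18, PERP) in each library (points), with group means and SD (lines and bars). TP73 and SPATA18 are highest in ETS1-Low, and PLK2 and TNFRSF10D are lowest there and highest in ETS1-High.

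The apoptotic members went in different directions. BBC3 encodes PUMA, a BH3-only protein that triggers mitochondrial apoptosis, and lies at chr19:47220822-47232766 on the - strand (GRCh38). BBC3 gave 6.42, 6.66 and 6.64 CPM in RFP, 3.70, 4.02 and 3.69 in ETS1-Low, and 4.62, 3.76 and 4.43 in ETS1-High. Every ETS1 library lay below every RFP library, and the ETS1 groups overlapped. BBC3 fell by 0.79 in ETS1-Low versus RFP (SE 0.10, edgeR adjusted p = 6.55e-10) and by 0.62 in ETS1-High versus RFP (SE 0.10, edgeR adjusted p = 1.06e-07). The difference between the ETS1 groups was 0.16 (SE 0.11, edgeR adjusted p = 0.187).

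BAX encodes the effector that permeabilises the mitochondrial outer membrane, and lies on the same chromosome at chr19:48954815-48961798 on the + strand (GRCh38). BAX gave 48.0, 44.3 and 44.5 CPM in RFP, 68.6, 64.7 and 69.2 in ETS1-Low, and 68.0, 67.6 and 67.0 in ETS1-High. All 6 ETS1 libraries lay above the RFP libraries and the ETS1 groups overlapped. BAX was higher by 0.57 in ETS1-High (SE 0.04, edgeR adjusted p = 1.98e-19) and by 0.57 in ETS1-Low (SE 0.04, edgeR adjusted p = 2.5e-19), each versus RFP. The difference between the ETS1 groups was 0.00, with a 95% interval from -0.07 to 0.07. Genes around BAX were higher too: the median of its 512 tested neighbours was 0.36 in ETS1-High and 0.37 in ETS1-Low versus RFP. With those medians subtracted, BAX stood 0.20 and 0.19 above its neighbours. The neighbours of BBC3 had medians of 0.35 and 0.36, so BBC3 fell in a region with a raised median, and stood 0.98 and 1.15 below them. The part of the region in either result was not tested.

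FAS encodes the death receptor of the extrinsic pathway, and lies at chr10:88953813-89029605 on the + strand (GRCh38). FAS gave 6.11, 6.55 and 6.86 CPM in RFP, 4.79, 4.80 and 4.64 in ETS1-Low, and 5.56, 4.74 and 4.70 in ETS1-High. Both ETS1 groups lay below RFP without overlap and overlapped each other. FAS fell by 0.46 in ETS1-Low versus RFP (SE 0.09, edgeR adjusted p = 2.41e-05) and by 0.38 in ETS1-High versus RFP (SE 0.09, edgeR adjusted p = 0.000237). The 103 neighbours of FAS had a median of -0.06 in ETS1-Low versus RFP but -0.52 in ETS1-High versus RFP, where FAS stood 0.14 above them. The part of the region in that result was not tested. STAMBPL1, on the same strand, and ACTA2, on the opposite strand, overlap FAS, with 306 to 526 and 485 to 2164 counts, so a share of reads may be assigned differently by another counting method. Its ligand FASLG had 0 counts in every library, where a floor of 3 counts is the upper limit for counting error.

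Sites that match the p53 response element in FAS and SESN1 are shown for comparison with the MDM2 site, with the match in capitals and the neighbouring bases in lower case. The FAS match (GRCh38.p14, chr10:88991309-88991328, + strand, 2 mismatches) lies within an annotated exon. The SESN1 match (chr6:109009018-109009037, - strand, 3 mismatches) lies in no annotated exon.

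FAS site: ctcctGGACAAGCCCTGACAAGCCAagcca
SESN1 site: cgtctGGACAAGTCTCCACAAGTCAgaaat

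The 3 members with a match did not share a direction: MDM2 was higher in both ETS1 groups than in RFP, and FAS was lower in both. SESN1 was lower in ETS1-High and not called in ETS1-Low. A link between a match and a change was not tested.

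TP53I3 encodes a quinone oxidoreductase-like protein linked to oxidative stress in apoptosis, and lies at chr2:24077433-24085861 on the - strand (GRCh38). The CCGGAA match of TP53I3, in capitals, starts 13 bases before the RefSeq start (chr2:24084842-24084847, - strand) and lies in an annotated exon.

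TP53I3 site: tccagccgtccaTTCCGGtggaggc

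TP53I3 was low and, in RFP, variable: it gave 1.62, 1.15 and 2.13 CPM in RFP, 1.38, 1.22 and 1.34 in ETS1-Low, and 1.88, 1.98 and 1.97 in ETS1-High. The RFP libraries spanned the whole range of the others. Against RFP the log2 fold change of TP53I3 was 0.25 in ETS1-High (edgeR adjusted p = 0.2) and -0.32 in ETS1-Low (0.116), neither called. ETS1-High exceeded ETS1-Low by 0.57 (SE 0.19, edgeR adjusted p = 0.00699) without overlap. The RFP comparisons turned on single libraries: ETS1-High versus RFP was 0.49 without RFP replicate 3 (adjusted p = 0.0239), and ETS1-Low versus RFP was -0.52 without RFP replicate 2 (0.0117). On FPKM values the difference between the ETS1 groups was not called (limma adjusted p = 0.0555, log2(FPKM + 1), mean FPKM of 1 or more). FAM228B overlaps TP53I3 on the opposite strand with 129 to 267 counts, more than TP53I3 itself, which had 52 to 104.

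**Figure D3:**
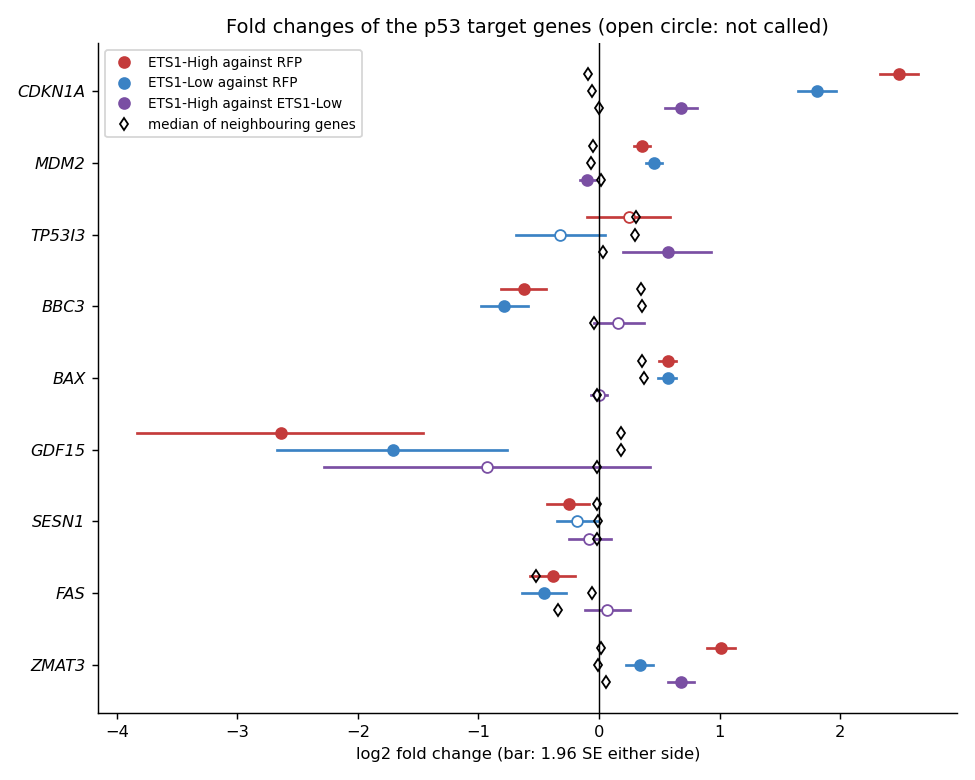
log2 fold change of each p53 target gene (horizontal axis) in the 3 comparisons (coloured circles, open where not called), with 95% intervals (bars) and the median log2 fold change of genes within 10 Mb on either side (diamonds). CDKN1A at 2.49 and 1.81 lies far from its neighbours, BAX lies close to its raised neighbours, and BBC3 lies on the other side of 0 from its own.

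Around these members, 21 genes of the BCL2 family and of the death receptor pathway were listed, of which 17 were tested. In ETS1-High versus RFP 11 were higher and 3 lower, with a median (log2) of 0.42, beside 37% and 37.2% of all genes. ETS1-Low versus RFP gave 11 higher and 3 lower as well, with a median of 0.34, beside 37.9% and 36.2%. CASP8, the initiator caspase downstream of FAS, rose from 14.3 ± 0.414 CPM in RFP to 41.9 ± 1.29 in ETS1-Low and 44.2 ± 1.29 in ETS1-High (SD, n = 3 each). Its log2 fold change was 1.63 in ETS1-High versus RFP (edgeR adjusted p = 6.41e-35). CFLAR, which blocks CASP8 at the receptor and lies near it on chromosome 2, rose by the same 1.63 (edgeR adjusted p = 4.15e-37), and their neighbours' median was 0.41.

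The lower genes of that list were MCL1, CYCS and BID. MCL1, an antiapoptotic protein that PUMA binds, fell by 0.45 in ETS1-High versus RFP (edgeR adjusted p = 1.99e-19) and CYCS, cytochrome c, fell by 0.25 (4.28e-09). BID, at -0.10, was called narrowly (edgeR adjusted p = 0.0435) and lost the call without any of 7 libraries. Between the ETS1 groups, 8 were higher and 4 lower, beside 29.9% and 29.3% of all genes. BMF, a BH3-only protein, was lower in ETS1-High than ETS1-Low by 0.24 (log2 fold change -0.24, edgeR adjusted p = 1.69e-09), and its neighbours' median was -0.34.

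SESN1 encodes a sestrin, which restrains mTORC1 signalling and supports the antioxidant response, and lies at chr6:108984309-109094846 on the - strand (GRCh38). SESN1 gave 7.61, 7.17 and 6.52 CPM in RFP, 6.90, 6.07 and 5.88 in ETS1-Low, and 5.69, 5.98 and 6.16 in ETS1-High. RFP lay above ETS1-High without overlap, and ETS1-Low overlapped both. SESN1 fell by 0.25 in ETS1-High versus RFP (SE 0.09, edgeR adjusted p = 0.00813), a call that was lost without RFP replicate 1 (adjusted p = 0.0574) and on FPKM values (limma adjusted p from 0.0823 to 0.138). ETS1-Low versus RFP gave -0.18 (SE 0.09, edgeR adjusted p = 0.0629), which was called with other scaling factors (0.0359 and 0.0179).

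GDF15 encodes a secreted stress cytokine of the TGF-beta family, and lies at chr19:18374731-18389176 on the + strand (GRCh38). It was the least expressed member, with 24, 18 and 16 counts in RFP, 5, 8 and 2 in ETS1-Low, and 4, 2 and 2 in ETS1-High. All 6 ETS1 libraries lay below the RFP libraries. The summed counts were 58, 15 and 8, and the ratio to RFP after library scaling was 0.301 in ETS1-Low (95% counting interval from 0.158 to 0.537) and 0.154 in ETS1-High (from 0.0634 to 0.324). ETS1-High over ETS1-Low was 0.512, with an interval from 0.188 to 1.29. The fit gave edgeR adjusted p = 0.000734 in ETS1-Low and 9.91e-06 in ETS1-High, each versus RFP. GDF15 passed the filter on low counts through the RFP libraries, where it is high, so its call supports no pattern among the members.

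GDF15 and SESN2 also answer to the stress factor ATF4, and a list of 9 ATF4-linked genes was set beside them. Whether ATF4 had a part in their change was not tested. In ETS1-High versus RFP 1 was higher and 7 were lower, with a median (log2) of -0.55, beside 37% and 37.2% of all genes. In ETS1-High versus ETS1-Low 1 was higher and 7 were lower, with a median of -0.61, beside 29.9% and 29.3%. In ETS1-Low versus RFP 2 were higher and 4 lower, with a median of -0.01, beside 37.9% and 36.2%. ASNS, asparagine synthetase, fell from 130 ± 4.94 CPM in RFP to 57.0 ± 2.10 in ETS1-Low and 37.2 ± 1.12 in ETS1-High (SD, n = 3 each), with a log2 fold change of -1.81 in ETS1-High versus RFP (edgeR adjusted p = 4.41e-41). DDIT4, a stress-induced inhibitor of mTORC1, fell by 1.45 (edgeR adjusted p = 2.27e-19). TRIB3, a pseudokinase of the stress response, fell by 0.81 (edgeR adjusted p = 6.57e-22). PPP1R15A, which restores translation after stress, was the gene that was higher, by 0.39 (edgeR adjusted p = 1.86e-11), beside neighbours at 0.36. CEBPB fell by 0.72 in ETS1-High versus ETS1-Low (edgeR adjusted p = 7.73e-26).

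A list of 49 other p53 targets gave the wider view, with 46 tested. In ETS1-High versus RFP 23 were higher and 14 lower, with a median (log2) of 0.20, beside 37% and 37.2% of all genes. In ETS1-Low versus RFP 25 were higher and 14 lower, also with a median of 0.20, beside 37.9% and 36.2%. Between the ETS1 groups the balance turned, with 15 higher and 24 lower in ETS1-High and a median of -0.15, beside 29.9% and 29.3% of all genes. The tested genes include TNFRSF10A, with 17 to 25 counts in RFP and at most 9 in any ETS1 library. They also include SFN, with 17 to 22 counts in ETS1-Low and at most 9 elsewhere. Both passed the low-count filter only through the group where they are high, so a call of either supports no direction in this list. On the FPKM values with no filter, limma gave 16 higher and 16 lower in ETS1-High versus RFP, 19 higher and 16 lower in ETS1-Low versus RFP, and 13 higher and 17 lower between the ETS1 groups.

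TRIM22, an antiviral ubiquitin ligase, rose from 4.64 ± 0.252 CPM in RFP to 38.4 ± 1.31 in ETS1-Low and 68.9 ± 1.02 in ETS1-High (SD, n = 3 each). Its log2 fold change was 3.89 in ETS1-High versus RFP (SE 0.06, edgeR adjusted p = 6.63e-49). PERP, a membrane protein of p53-dependent apoptosis, rose from 22 ± 0.340 to 80.0 ± 1.76 and 94.4 ± 1.17 CPM in the same order, with a log2 fold change of 2.10 in ETS1-High versus RFP (edgeR adjusted p = 1.08e-43). DRAM1, a lysosomal regulator of autophagy, was higher by 1.99 in ETS1-High (edgeR adjusted p = 1.14e-28) and by 2.31 in ETS1-Low (1.08e-31).

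SESN2, the sestrin that also answers to ATF4, fell by 1.44 in ETS1-High versus RFP (edgeR adjusted p = 3.5e-29) and by 0.52 in ETS1-Low versus RFP (3.66e-13). RRM2B, a p53-inducible ribonucleotide reductase subunit, fell by 0.66 in ETS1-High versus RFP (edgeR adjusted p = 6.49e-19), beside neighbours at -0.32. CCNG1, cyclin G1, fell by 0.55 (edgeR adjusted p = 1.13e-22), beside neighbours at -0.40, whose part was not tested.

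Several targets changed in opposite directions in the ETS1 groups. PLK2, a polo-like kinase, gave 10.1 ± 0.395 CPM in RFP, 6.54 ± 0.467 in ETS1-Low and 26.2 ± 1.70 in ETS1-High (SD, n = 3 each). PLK2 fell by 0.62 in ETS1-Low versus RFP (edgeR adjusted p = 1.55e-10), rose by 1.38 in ETS1-High versus RFP (1.81e-25), and was 2.00 higher in ETS1-High than ETS1-Low (2.75e-30). TNFRSF10D, a decoy receptor for the death ligand TRAIL, had 79 to 92 counts in RFP, 7 to 9 in ETS1-Low and 271 to 332 in ETS1-High, which is a log2 difference of 5.20 between the ETS1 groups (SE 0.27, edgeR adjusted p = 8.73e-30). SPATA18, a mitochondrial quality factor, went the other way, with 4.89 ± 0.0476, 9.75 ± 0.756 and 2.26 ± 0.151 CPM across RFP, ETS1-Low and ETS1-High respectively. It fell by 2.11 in ETS1-High versus ETS1-Low (edgeR adjusted p = 3.1e-24). PIDD1, an adaptor of the PIDDosome, was higher in both groups than in RFP and lower by 0.76 in ETS1-High than ETS1-Low (log2 fold change -0.76, edgeR adjusted p = 3.96e-25).

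A further 7 well-known genes of the pathway, 6 targets and the phosphatase PPM1D, were named after their values were seen. DDB2, a DNA damage sensor, was higher than in RFP by 1.15 in ETS1-High and by 1.25 in ETS1-Low (edgeR adjusted p = 7.88e-26 and 2.62e-27). FDXR, a mitochondrial reductase, was higher by 0.95 and 1.68 in the same order (edgeR adjusted p = 3.3e-25 and 1.02e-36), and PHLDA3, an AKT inhibitor, by 1.71 and 1.88 (9.71e-27 and 1.5e-28). PMAIP1, which encodes the BH3-only protein NOXA, was higher by 0.86 and 1.01 (edgeR adjusted p = 2.12e-24 and 1.74e-27), unlike BBC3. Neighbours' medians in ETS1-High versus RFP were 0.31 for DDB2 and 0.43 for PMAIP1. GADD45A, a growth arrest gene, fell by 0.61 and 0.25 (edgeR adjusted p = 1.02e-18 and 3.01e-07). BTG2, an antiproliferative gene, had log2 fold changes of -0.47 for ETS1-High and 0.21 for ETS1-Low (edgeR adjusted p = 3.09e-18 and 4.21e-08). PPM1D, a p53-induced phosphatase that dampens p53, fell by 0.24 and 0.41 (edgeR adjusted p = 6.08e-05 and 1.86e-09).

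**Figure D4:**
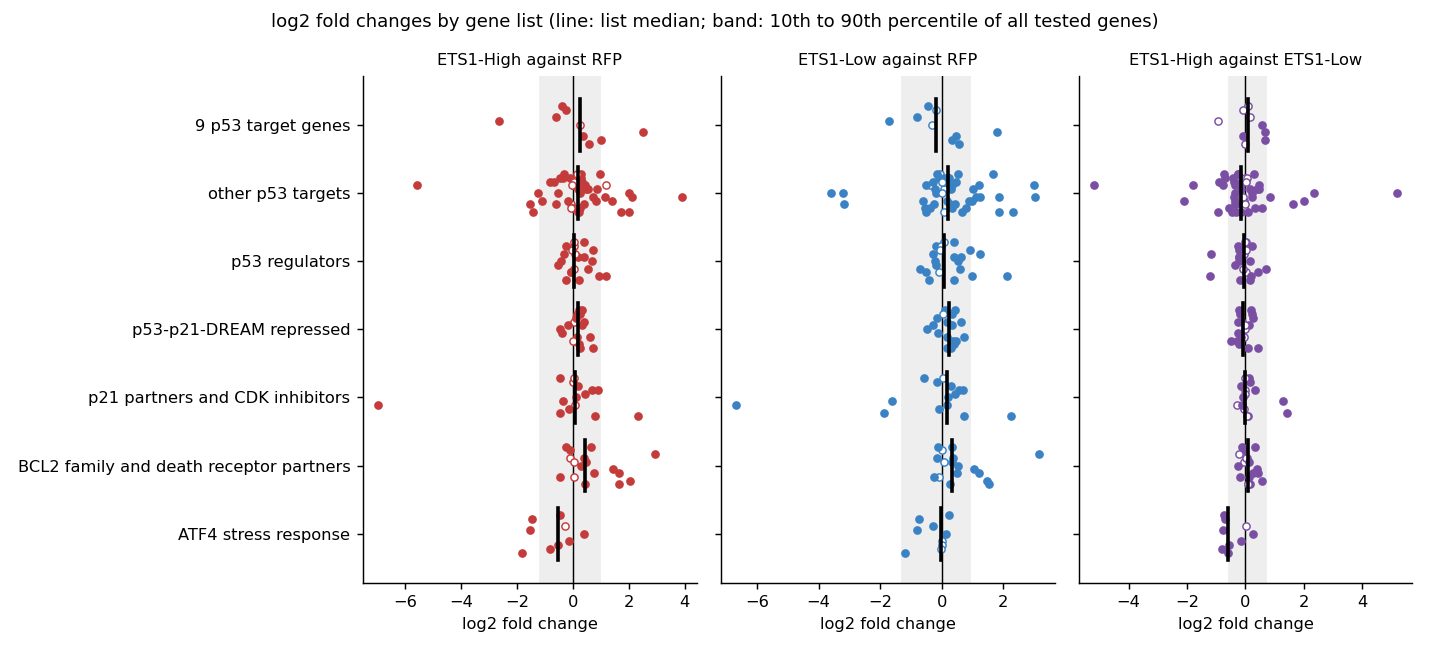
log2 fold changes (horizontal axes) of the tested genes of 7 lists in the 3 comparisons (points, open where not called), with list medians (vertical lines) and the range from the 10th to the 90th percentile of all tested genes (grey band). Most points lie inside the band of all genes, and the ATF4 list has medians of -0.55 and -0.61 in both comparisons of ETS1-High.

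Genes that p21 represses through the DREAM complex were examined because CDKN1A rose. Of 18 such cell-cycle genes, 13 were higher and 3 lower in ETS1-High versus RFP, with a median (log2) of 0.17, beside 37% and 37.2% of all genes. In ETS1-Low versus RFP 13 were higher and 4 lower, with a median of 0.24, beside 37.9% and 36.2%. None of the 18 was called with a change of 2-fold or more in any of the 3 comparisons, beside 21%, 20.6% and 9.74% of all genes in ETS1-High versus RFP, ETS1-Low versus RFP and between the ETS1 groups. AURKA, a mitotic kinase, rose by 0.73 in ETS1-High versus RFP (edgeR adjusted p = 1.36e-27), MCM5, a helicase subunit, by 0.61 (2.83e-24), and KIF23, a cytokinesis motor, by 0.38 (2.31e-15). The 3 that were lower were CDC25C at -0.48 (edgeR adjusted p = 1.48e-13), E2F1 at -0.38 (8.43e-15) and CCNB1 at -0.17 (6.31e-07). Neighbours' medians were -0.38 for CDC25C and -0.50 for CCNB1. Between the ETS1 groups 6 were higher and 9 lower, beside 29.9% and 29.3% of all genes, with CCNB2 lower by 0.30 (log2 fold change -0.30, edgeR adjusted p = 5.01e-11), while AURKA was higher by 0.43 (3.69e-18) and CENPF by 0.26 (1.52e-10). CDKN1A was higher in all 3 comparisons, while the median of this list was above 0 in both comparisons with RFP and -0.09 between the ETS1 groups. The p21 protein was not measured, and a link between CDKN1A and this list was not tested.

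The partners of p21 and the other cyclin-dependent kinase inhibitors formed a list of 16 genes with 15 tested. In ETS1-High versus RFP 7 were higher and 5 lower, in ETS1-Low versus RFP 8 were higher and 6 lower, and between the ETS1 groups 6 were higher and 3 lower. Of all genes, 74.2%, 74.1% and 59.2% were called in these comparisons. CDKN2C, the inhibitor p18, rose from 12.8 ± 0.0311 CPM in RFP to 61.9 ± 1.24 in ETS1-Low and 63.7 ± 0.732 in ETS1-High (SD, n = 3 each), with a log2 fold change of 2.31 in ETS1-High versus RFP (edgeR adjusted p = 4.9e-43). CCND2, cyclin D2, fell from 23.6 ± 0.666 CPM in RFP to 0.225 ± 0.0672 in ETS1-Low and 0.186 ± 0.0348 in ETS1-High. It had only 6 to 12 counts in ETS1-Low and 7 to 10 in ETS1-High. CCND2 passed the low-count filter through the RFP libraries, where it is high, so its call supports no pattern in the list. Its log2 fold change was -6.97 in ETS1-High versus RFP (edgeR adjusted p = 4.22e-42). CCND1, cyclin D1, rose by 0.69 (edgeR adjusted p = 1.25e-26) beside neighbours at 0.36. CCNA2, cyclin A2, rose by 0.80 (edgeR adjusted p = 4.91e-28), and CCND3 fell by 0.48 (2.37e-15). CDC25C, CCNA2, CCND1 and PPP1R13B overlap an expressed gene on the opposite strand, as TP73 does.

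CDK6 was lowest in ETS1-Low, with 15.8 ± 1.02, 4.25 ± 0.371 and 11.4 ± 0.399 CPM across RFP, ETS1-Low and ETS1-High respectively, and was 1.42 higher in ETS1-High than ETS1-Low (edgeR adjusted p = 7.72e-21). CDKN1C, the inhibitor p57 and a relative of p21, had the same shape, with 3.59 ± 0.417, 1.16 ± 0.115 and 2.84 ± 0.542 CPM, and a difference of 1.29 between the ETS1 groups (edgeR adjusted p = 1.78e-09). CDKN1B, the inhibitor p27, and PCNA, the clamp that p21 binds, were lower in ETS1-High than ETS1-Low by 0.14 and 0.12 (log2 fold changes -0.14 and -0.12, edgeR adjusted p = 0.00229 and 0.000567).

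**Figure D5:**
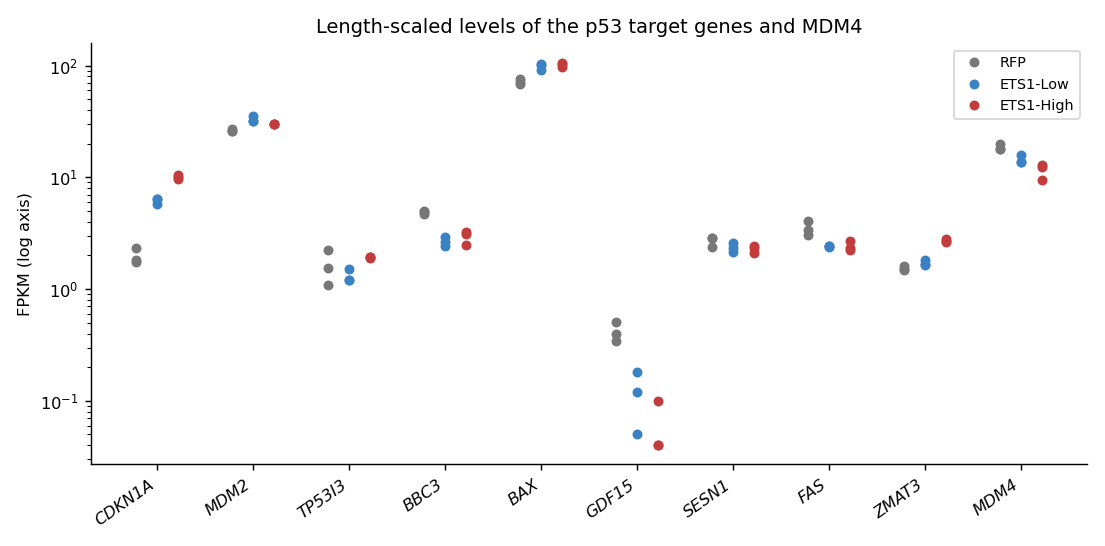
Level per length in FPKM (vertical log axis) of the 9 p53 target genes and MDM4 in each library (points, coloured by group). BAX is the highest, GDF15 is below 1 FPKM, and CDKN1A moves from among the low members in RFP to the third place of the members in both ETS1 groups.

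Levels can be compared between genes only per length, in the deposited FPKM. In RFP the order was BAX at 72.4 ± 3.79 FPKM (SD, n = 3), MDM2 at 26.4 ± 0.818, BBC3 at 4.89 ± 0.147, FAS at 3.50 ± 0.542, SESN1 at 2.71 ± 0.278, CDKN1A at 1.98 ± 0.317, TP53I3 at 1.62 ± 0.590, ZMAT3 at 1.53 ± 0.0586 and GDF15 at 0.417 ± 0.0862. The place of TP53I3 was not resolved, as its libraries spanned those of ZMAT3 and overlapped those of CDKN1A. Every CDKN1A library lay above every ZMAT3 library. In ETS1-High, CDKN1A at 10.1 ± 0.447 FPKM followed BAX at 103 ± 4.85 and MDM2 at 30 ± 0.0757. BBC3 at 2.95 ± 0.401, ZMAT3 at 2.7 ± 0.104, FAS at 2.42 ± 0.225 and SESN1 at 2.28 ± 0.170 overlapped with their neighbours in the order, above TP53I3 at 1.93 ± 0.0153 and GDF15 at 0.0600 ± 0.0346. In ETS1-Low the first places were the same, with CDKN1A at 6.17 ± 0.381 FPKM, and BBC3 at 2.66 ± 0.248, FAS at 2.42 ± 0.0351 and SESN1 at 2.36 ± 0.235 overlapped.

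Genes whose pattern over the 9 libraries was most like that of a member were found among 12400 tested genes averaging 100 counts or more, by the root mean square difference in log2 CPM after centring. For CDKN1A these were KANK1 at 0.096, TFAP2A at 0.101 and SDPR at 0.101. For ZMAT3 they were ZNF521 at 0.053, AKAP2 at 0.054 and LRRC34 at 0.056, and for MDM2 SRSF7 at 0.026, KLHL15 at 0.032 and MRE11A at 0.036. The nearest to BAX were ZMYND11 at 0.020, TRAPPC8 at 0.026 and CFAP97 at 0.027, and to BBC3 TIGD2 at 0.046, WDR60 at 0.065 and TTC13 at 0.071. The nearest to FAS were ZNF571 at 0.054, STX3 at 0.061 and SEC24B at 0.062, and to SESN1 DERA at 0.053, THOC7 at 0.054 and CENPK at 0.056. These matches are less particular: within 2 times the nearest distance lay 435 genes for FAS and 629 for SESN1. For the members named before them this number ran from 17 for BAX to 58 for MDM2. TP53I3 and GDF15 had no close match: the nearest were NPC2 at 0.173 and GNG4 at 0.345. None of the 27 nearest genes, given by the symbols of the files, is a member or belongs to the p53 lists. The 6 pathway lists hold 126 tested genes beside the 12400 searched, so few would be met among 27 whatever the pattern.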

How the data were processed

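RNA was measured in 9 TC-32 libraries made with a stranded mRNA kit, per the labels' protocols. The authors deposited RSEM expected counts, which divide shared reads between genes (9.00% to 10.3% of values per library were not whole), and FPKM values scaled by gene length and library size, per the file headers. The submitters' processing notes list cutadapt 4.4, STAR 2.7.3, featureCounts, Subread 2.0.3, limma 3.38.3 and the builds GRCh38 and hg38. The annotation release is not given in the sources used here.

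Expected counts were rounded and tested with edgeR 4.0.16 in R 4.3.3: filterByExpr (minimum count 10), TMM factors, glmQLFit with robust estimation over all 9 libraries with group as the only factor, and Benjamini-Hochberg adjustment over the 17235 genes tested, with an adjusted p of 0.05 as the threshold. The same steps were tested on simulated data. CPM uses the TMM-scaled totals, and SD is over 3 libraries. Alternatives used DESeq2 1.42.0 and limma 3.58.1 on log2(FPKM + 1) or log2(FPKM + 0.1). Replicates were not duplicates: the chi-square between them, divided by the number of genes (50 counts or more), was 2.66 to 5.19. Intervals and the floor of 3 counts cover counting error only. Positions come from GENCODE v44 (GRCh38) by gene ID and promoter windows from RefSeq (GRCh38.p14). Neighbours are tested genes within 10 Mb on either side, at least 20.

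The 9 members, the lists and the tests were chosen with earlier results of these data known. Besides the members, MDM4, CDKN2A and ETS1, the genes named from each of 6 pathway lists are the 3 in each direction ranked first by p in ETS1-High versus RFP and the 2 ranked first in ETS1-High versus ETS1-Low, among called genes averaging 100 counts or more. Exceptions are named where they appear, and some genes that the rule names are not reported here.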

Additional observations from a re-analysis of the deposited data

Results flagged for a closer look

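The members and regulators listed here differed between the ETS1 groups, by the edgeR test of ETS1-High versus ETS1-Low, which is the test of the difference between their changes against the shared RFP libraries. CDKN1A was higher in ETS1-High by 0.68 on the log2 scale and ZMAT3 by 0.68. TP53I3 was higher by 0.57 and CDKN2A by 0.71. The log2 difference was -0.10 for MDM2 and -0.37 for MDM4. Of all tested genes, 59.2% were called in that comparison. The call of CDKN2A (edgeR adjusted p = 0.0481) was lost without any 1 ETS1-Low library, without ETS1-High replicate 1 or 3 and without RFP replicate 3, with adjusted p from 0.0517 to 0.157, and under DESeq2 (adjusted p = 0.101). The call of MDM2 was lost without ETS1-Low replicate 2 (edgeR adjusted p = 0.0649) or ETS1-High replicate 2 (0.141), and in the limma fit on unfiltered FPKM (0.057). The call of TP53I3 was lost on the FPKM values (limma adjusted p from 0.0555 to 0.152). A minimum change of 1.2-fold ended all of these 3 calls. No group had the 4 libraries that a test for a single outlying library needs.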

How the results depend on the processing

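The number of members called ranged from 7 to 9 in ETS1-High versus RFP, 7 to 8 in ETS1-Low versus RFP and 3 to 4 between the ETS1 groups when 1 library was left out. The other p53 targets ranged from 35 to 38, 38 to 41 and 34 to 40. Between the ETS1 groups, 2 members were called against a minimum change of 1.2-fold and 2 by limma on log2(FPKM + 1) with no filter, in place of 4, and 23 other targets against the 1.2-fold minimum, in place of 39. That minimum took the share of all genes called from 74.2% to 48.4%, 74.1% to 48.7% and 59.2% to 27.3%. With the neighbours' median subtracted, ETS1-High versus RFP was 0.14 for FAS, -0.07 for TP53I3 and -0.06 for CDKN2A, and ETS1-Low versus RFP was 0.10 for MDM4, each of the opposite sign to its own fold change. FAS between the ETS1 groups was from -0.01 to 0.12 without single libraries and 0.00 in each of 3 FPKM fits. BAX between them was -0.01 with upper-quartile factors and from -0.03 to 0.02 without single libraries. CDKN2A in ETS1-High versus RFP was -0.04 with upper-quartile factors, 0.00 with at least 10 counts in every library, -0.04 by limma with no filter, and from -0.13 to 0.19 without single libraries. The cause was not tested. Of 557 alternative values for the members, 367 of called and 146 of uncalled differences kept their direction and side of the threshold. Depth limited GDF15 and CDKN2A, and with at least 10 counts in every library GDF15 could not be tested.

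Replicate numbers recur in each group, and the labels do not say whether they pair the libraries. Deviations of same-numbered libraries correlated from -0.09 to 0.11, so no pairing was seen, but so few libraries cannot exclude it. With the replicate number as a block, the members called were 8, 7 and 4, and the other targets 37, 38 and 39.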
